A study of Mus musculus with 9 samples.

Results

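Club cells are the secretory cells of the bronchioles, and the transcripts that mark them were followed here through lung RNA of mice with 2, 1 or 0 alleles of a human CFTR transgene. The 10 genes were chosen as established club cell products: the secretoglobins Scgb1a1, Scgb3a2 and Scgb3a1, the enzymes Cyp2f2, Cbr2, Aldh1a1, Gsta3 and Fmo2, and the secreted proteins Hp and Bpifa1. Every probe set annotated to one of them was taken, which gave 13 of the 22690 probe sets on the array, for 10 of 12393 named genes. Of these 13 probe sets, 11 passed a filter on dim probe sets and were tested with the 13576 that passed in all. The single probe set of Bpifa1 and the dimmest of 3 for Fmo2 did not pass, and their differences come from a fit without the filter over 22626 probe sets.

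The study compared adult FVB/N mice in 3 groups with 3 arrays each: HO carried SP-C-hCFTRtg/tg, HE carried SP-C-hCFTRtg/- and WT carried no transgene. Mouse Cftr was intact (mCftr+/+) in all groups by the labels, although WT 3 has no genotype field. The human cDNA was under the promoter of Sftpc, the gene of surfactant protein C, which marks alveolar type II cells. HO 2 is titled and genotyped as homozygous, but its description writes 1 allele. It was kept in HO, and results that rest on it are given with and without it. The samples are called triplicates, and nothing in the labels ties each one to its own animal, so a p-value here reflects only how far these samples scatter, which may be technical. Each replicate number also goes with its own leading number in the source names (3, 9 and 11 for numbers 1, 2 and 3), and the labels do not say what that number stands for.

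Club cells line the distal airway, secrete secretoglobins into the airway fluid and carry much of the lung's capacity to metabolise inhaled compounds. In mice they reach far up the airway, and Scgb1a1 has long served as their defining transcript. Several of their products also mark other places: Scgb3a1 and Bpifa1 belong mainly to the larger airways and upper respiratory tract, Hp is also made by alveolar cells and the liver, and Fmo2 is found in other lung cells too. The arrays read whole lung, so fewer cells of a type and less RNA per cell cannot be told apart. Intensities are linear array signal scaled by the authors to the same trimmed mean on every array, and levels are compared between arrays for 1 probe set at a time, or for the sum of a list of markers.

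The 9 arrays had median intensities of 697 to 742, and 4.29% to 5.53% of their values lay at or under the floor of 25.5. The Sftpc signal, at its brighter probe set, differed by 0.03 ± 0.15 (SE) in HO minus WT and by -0.04 ± 0.15 in HE minus WT on the log2 scale. Mouse Cftr differed by 0.03 ± 0.12 and -0.01 ± 0.42 in HO minus WT at its 2 probe sets. These are probe sets for the mouse gene, so they do not check the human transgene.

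Scgb1a1, the club cell secretoglobin also called CC10 or uteroglobin, had intensities of 54307, 60962 and 47184 in HO, 57363, 54494 and 56370 in HE, and 64902, 58441 and 44202 in WT. The 3 groups overlapped throughout, and the WT arrays held both the highest and the lowest value. The difference was -0.03 ± 0.16 (SE; 95% interval -0.39 to 0.32) on the log2 scale in HO minus WT and 0.02 ± 0.16 in HE minus WT. Its order of mean log2 level was HE, WT, HO, and no neighbours differed beyond their spread. All 10 genes are drawn by array in the panel plot, in which Scgb1a1 spans 1.47-fold from its lowest to its highest array.

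**Figure D1:**
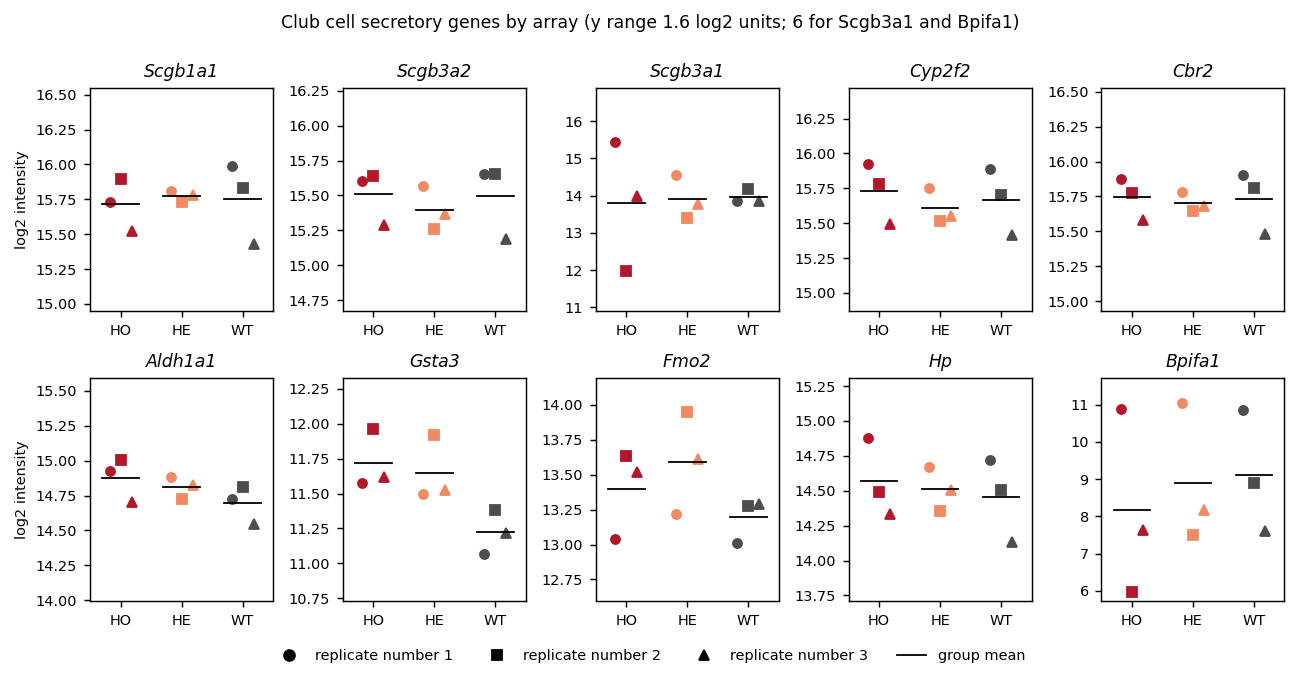
Log2 intensity (y axis) of the 10 club cell genes on each array, by genotype (x axis: HO, HE, WT), with 1 marker shape per replicate number and a line at each group mean; each gene is shown at its probe set of highest mean. The axes span 1.6 log2 units except for Scgb3a1 and Bpifa1, which span 6. The 6 HO and HE arrays of Gsta3 lie above its 3 WT arrays, and the 3 circles of Bpifa1 (number 1) lie above all its other arrays.

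Scgb3a2, a secretoglobin of bronchiolar epithelium, had intensities of 49740, 51079 and 40101 in HO, 48547, 39269 and 42308 in HE, and 51557, 51624 and 37310 in WT. WT 3 was again the lowest of the 9 arrays and the groups overlapped, with a difference of 0.01 ± 0.17 in HO minus WT and -0.10 ± 0.17 in HE minus WT. The third secretoglobin, Scgb3a1, which is known from secretory cells of the larger airways, behaved differently. Its intensities were 44253, 4017 and 16159 in HO, 24045, 10880 and 13951 in HE, and 14752, 18559 and 14912 in WT. HO 1 was the highest and HO 2 the lowest of all 9 arrays, an 11.0-fold range, while the WT arrays stayed close together. The HO minus WT difference of -0.17 ± 0.65 had an interval of -1.59 to 1.25, which leaves room for more than a doubling or a halving.

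The promoter of Scgb3a1 is shown with that of Bpifa1, because these genes had the widest spread of the 10 over the arrays. Each runs from 250 bases before to 50 bases after the start in RefSeq's GRCm38.p6 annotation, from which windows were used for 7 of the 10 genes. Scgb3a1 is at chr11:49663345-49663644 on the plus strand and Bpifa1 at chr2:154142630-154142929 on the plus strand. Capitals mark matches, on either strand, to 5 motifs of factors known from airway epithelium: TGTTTNC for forkhead factors, CTCAAG for NKX2-1, TTGCNNAA for C/EBP factors, TGACNNNGC for the antioxidant response element and AGAACA for the glucocorticoid receptor half-site.
Scgb3a1: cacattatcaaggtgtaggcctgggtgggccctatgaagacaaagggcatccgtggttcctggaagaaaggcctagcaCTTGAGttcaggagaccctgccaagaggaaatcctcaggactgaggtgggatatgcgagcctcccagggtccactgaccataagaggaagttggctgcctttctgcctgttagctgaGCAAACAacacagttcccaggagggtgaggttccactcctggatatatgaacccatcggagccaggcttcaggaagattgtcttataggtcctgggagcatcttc
Bpifa1: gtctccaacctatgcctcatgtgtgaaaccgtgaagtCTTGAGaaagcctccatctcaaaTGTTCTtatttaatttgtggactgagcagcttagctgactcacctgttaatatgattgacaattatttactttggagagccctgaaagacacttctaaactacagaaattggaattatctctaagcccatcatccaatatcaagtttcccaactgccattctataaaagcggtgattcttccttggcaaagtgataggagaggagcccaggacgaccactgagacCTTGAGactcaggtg
Scgb3a1 held a forkhead match that starts at -55 and an NKX2-1 match at -172, counted from the start site. Bpifa1 held NKX2-1 matches at -213 and 36 and a glucocorticoid half-site at -190. Over 32851 promoters of this length, 20.5% held the forkhead letters, 15.9% the NKX2-1 letters and 19.0% the half-site, so single matches are common.

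Bpifa1, also called Plunc or SPLUNC1, encodes a secreted protein of airway surface liquid. Its intensities were 1895, 62.7 and 197 in HO, 2104, 180 and 288 in HE, and 1858, 480 and 194 in WT. The first value of each genotype stood far above the other two, so the 3 arrays of replicate number 1 were high whatever the genotype. HO 2 was the lowest array, as it was for Scgb3a1. The range over the 9 arrays was 33.6-fold, and the log2 SD of 1.82 was larger than that of every probe set tested. In the fit without the filter the HO minus WT difference was -0.96 ± 1.51, with an interval of -4.49 to 2.57, and it became 0.13 without HO 2. HE minus WT gave -0.22 ± 1.51, and the order of means was WT, HE, HO with no neighbours apart.

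Cyp2f2 is the cytochrome P450 that activates naphthalene in mouse club cells. It had intensities of 62201, 56222 and 46083 in HO, 55145, 46857 and 47975 in HE, and 60679, 53288 and 43640 in WT. Each genotype had its highest value at number 1, and the groups overlapped. Cbr2, a lung carbonyl reductase of club cells, had 59984, 56105 and 49070 in HO, 56407, 51304 and 52558 in HE, and 61262, 57422 and 45815 in WT. The genotype differences of both enzymes were within 0.07 of 0 on the log2 scale: 0.06 ± 0.16 and -0.06 ± 0.16 for Cyp2f2 in HO and HE minus WT, and 0.01 ± 0.14 and -0.03 ± 0.14 for Cbr2. Their promoters are given because these were the 2 genes that tracked each other most closely over the arrays, on GRCm38.p6 at chr7:27119705-27120004 on the plus strand and chr11:120731972-120732271 on the minus strand, with the same marking.
Cyp2f2: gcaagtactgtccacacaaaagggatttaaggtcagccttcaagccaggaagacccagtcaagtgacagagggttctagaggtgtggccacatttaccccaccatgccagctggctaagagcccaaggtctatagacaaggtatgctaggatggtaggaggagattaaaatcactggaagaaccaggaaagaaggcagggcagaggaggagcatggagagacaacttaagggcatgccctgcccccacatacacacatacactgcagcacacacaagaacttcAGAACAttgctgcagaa
Cbr2: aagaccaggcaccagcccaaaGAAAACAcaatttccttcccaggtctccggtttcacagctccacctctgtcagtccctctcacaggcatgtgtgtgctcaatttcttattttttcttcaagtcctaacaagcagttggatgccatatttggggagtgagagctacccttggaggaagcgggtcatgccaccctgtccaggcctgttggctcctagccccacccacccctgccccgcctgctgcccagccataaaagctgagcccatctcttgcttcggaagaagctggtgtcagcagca
Cyp2f2 held a half-site match at 34 and Cbr2 a forkhead match at -229, and no motif of the 5 was found in both windows.

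Aldh1a1, a retinaldehyde dehydrogenase that also clears reactive aldehydes, had intensities of 31119, 32862 and 26735 in HO, 30277, 27058 and 29018 in HE, and 27082, 28747 and 23907 in WT. The means ran HO, HE, WT from high to low, but all neighbours overlapped. The differences were 0.18 ± 0.13 in HO minus WT and 0.12 ± 0.13 in HE minus WT. Hp encodes haptoglobin, which binds free haemoglobin. Its intensities were 30040, 23052 and 20655 in HO, 26068, 21002 and 23238 in HE, and 26959, 23242 and 18005 in WT. Its means also ran HO, HE, WT, with overlap throughout and differences of 0.11 ± 0.18 and 0.06 ± 0.18 against WT.

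Gsta3 encodes an alpha-class glutathione transferase, an enzyme that joins glutathione to reactive compounds. At its brighter probe set it had 3059, 3986 and 3152 in HO, 2890, 3872 and 2955 in HE, and 2146, 2665 and 2386 in WT. At the other it had 1240, 1367 and 1176 in HO, 1287, 1420 and 1423 in HE, and 1065, 1157 and 922 in WT. At both probe sets all 6 HO and HE arrays lay above all 3 WT arrays, and HO and HE overlapped each other. The brighter probe set was 1.41-fold higher in HO than in WT (log2 0.50 ± 0.16, interval 0.14 to 0.86, unadjusted p = 0.0107) and 1.34-fold higher in HE than in WT (0.43 ± 0.16, unadjusted p = 0.0237). The other gave 0.27 ± 0.13 in HO minus WT (unadjusted p = 0.0636) and 0.40 ± 0.13 in HE minus WT (unadjusted p = 0.0113). None of these differences passed limma's test after Benjamini-Hochberg adjustment over all probe sets: the adjusted p of the brighter one in HO minus WT was 0.992.

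The Gsta3 promoter, on GRCm38.p6 at chr1:21240335-21240634 on the plus strand, is shown because Gsta3 was the gene of the 10 whose transgenic and WT arrays did not overlap.
Gsta3: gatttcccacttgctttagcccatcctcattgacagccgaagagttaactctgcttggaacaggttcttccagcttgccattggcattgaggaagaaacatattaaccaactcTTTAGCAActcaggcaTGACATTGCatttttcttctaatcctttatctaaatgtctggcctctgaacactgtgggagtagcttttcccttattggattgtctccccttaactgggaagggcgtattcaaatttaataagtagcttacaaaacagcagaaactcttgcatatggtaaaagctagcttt
It held a C/EBP match at -137, whose letters occur in 10.8% of promoters, and a match to the antioxidant response element at -121, with the letters TGACATTGC, which 12.4% of promoters match. The antioxidant response element is known as the site through which NRF2 induces glutathione transferase genes.

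Within each replicate number, the brighter Gsta3 probe set was higher in HO than in WT by 0.51, 0.58 and 0.40 on the log2 scale for numbers 1, 2 and 3, and higher in HE than in WT by 0.43, 0.54 and 0.31. The other was higher by 0.22, 0.24 and 0.35 in HO and by 0.27, 0.30 and 0.63 in HE. Without HO 2 the HO minus WT difference of the brighter probe set had an unadjusted p of 0.0508. Leaving out HE 2 brought its HE minus WT difference to 0.29 with an unadjusted p of 0.110. Without WT 3 the dimmer probe set gave 0.25 for both transgenic groups against WT (unadjusted p = 0.0781), so single arrays decide whether the unadjusted p passes 0.05.

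Fmo2, a flavin-containing monooxygenase of lung, was read by 3 probe sets. At the one of highest mean its intensities were 8422, 12735 and 11746 in HO, 9552, 15792 and 12544 in HE, and 8250, 9938 and 10034 in WT. A second had 8572, 10434 and 13658 in HO, 9219, 16867 and 12223 in HE, and 5836, 10505 and 10716 in WT. At both, HE 2 was the highest and WT 1 the lowest array, and number 1 was the lowest array of every genotype. The differences were 0.20 ± 0.21 and 0.30 ± 0.28 in HO minus WT and 0.40 ± 0.21 and 0.51 ± 0.28 in HE minus WT. The dimmest probe set, with 312 to 401 in HO, 348 to 533 in HE and 306 to 379 in WT, gave 0.09 ± 0.19 and 0.43 ± 0.19 in the fit without the filter. The order of means was HE, HO, WT at all 3 probe sets, with overlap between every pair of groups. Within numbers 1, 2 and 3 the HE minus WT differences were 0.21, 0.67 and 0.32 at the probe set of highest mean and 0.66, 0.68 and 0.19 at the second, all positive. The HO minus WT differences were 0.03, 0.36 and 0.23 at the first and 0.55, -0.01 and 0.35 at the second.

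Over the 11 tested probe sets of the club cell genes, none passed an adjusted p of 0.05 in any genotype comparison, and neither did any of the 13576, so the background was 0% in each of the 4 contrasts and in the F test over genotypes. Unadjusted p under 0.05 was met by 1 of 11 in HO minus WT, against 4.49% of all probe sets, by 2 of 11 in HE minus WT, against 3.11%, and by none in HO minus HE, against 2.56%. For both transgenic groups minus WT it was 2 of 11, against 4.19%. All of these were Gsta3 probe sets in the fit without the replicate number. With the replicate number as a block, it was 1 of 11 in HO minus WT, beside 5.95% of all, and 4 of 11 in HE minus WT, beside 4.35%. The block gave 4 of 11 for both transgenic groups minus WT, beside 5.69%, and 0 in HO minus HE, beside 3.49%. Groups that did not overlap were found only at the 2 Gsta3 probe sets. The shares of all probe sets were 8.88% in HO minus WT (3.98% with HO higher), 7.7% in HE minus WT (3.25% with HE higher) and 2.08% for both transgenic groups minus WT (0.854% with both higher). In HO minus HE no member stood apart, against 6.66%. The median difference of the 11 was 0.11 in HO and 0.06 in HE minus WT, beside -0.005 and -0.007 over all probe sets tested. Of the 11, 9 and 7 were above 0, against 48.8% and 47.8% of all probe sets. The 11 count Gsta3 and Fmo2 at 2 probe sets each. At 1 probe set per gene, the medians of the 9 genes were 0.06 and 0.02, with 7 and 5 above 0.

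**Figure D2:**
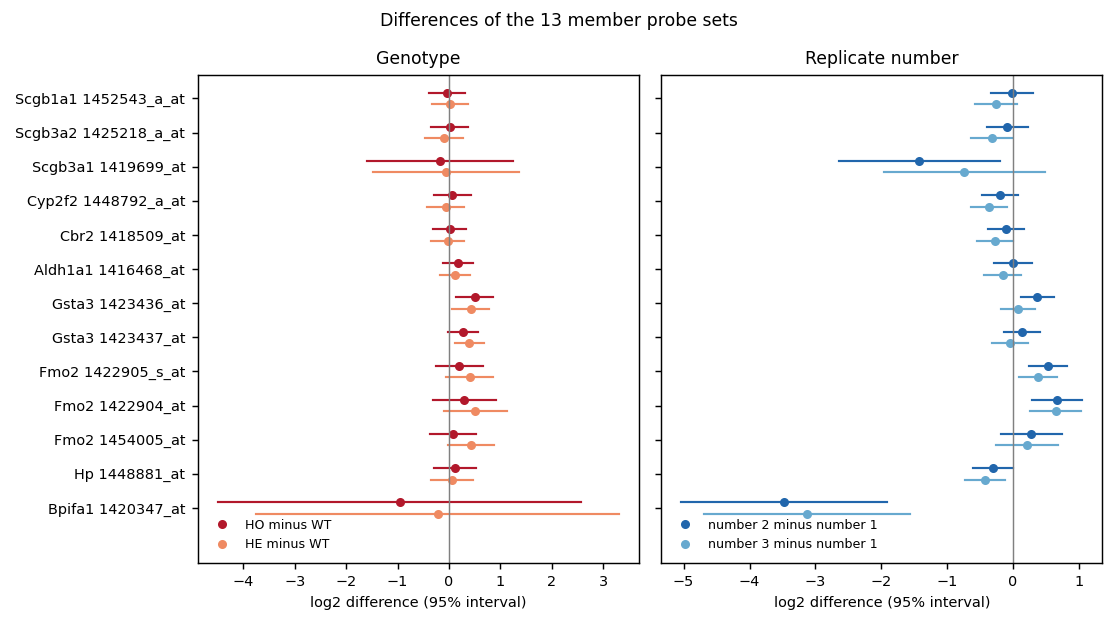
Log2 differences (x axes) with 95% intervals for the 13 probe sets of the club cell genes, by genotype (left: HO and HE minus WT) and by replicate number (right: numbers 2 and 3 minus number 1), from fits over all probe sets. The points of both Gsta3 probe sets lie to the right of 0 in both genotype contrasts. The interval of the dimmer one in HO minus WT crosses 0 (-0.02 to 0.56). Bpifa1 lies near -3 in both number contrasts.

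The pooled difference of Scgb3a1 hid opposite values. Its HO over WT ratio was 3.00 within number 1, 0.216 within number 2 and 1.08 within number 3. The pooled HO minus WT difference of -0.17 became 0.74 without HO 2 and -0.99 without HO 1. Bpifa1 gave 1.02, 0.131 and 1.02 for the same ratios, so number 2 alone was low in HO relative to WT.

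At their probe sets of highest mean, 8 of the 10 genes varied more between replicate numbers than between genotypes. For Bpifa1, 82.9% of the variance over the 9 arrays lay between numbers and 5.72% between genotypes. Cyp2f2 had 76.6% and 8.92%, Hp 73.8% and 4.93%, Cbr2 72.5% and 1.62%, Scgb3a2 58.5% and 7.86%, Scgb1a1 52.6% and 2.11%, Scgb3a1 44.5% and 0.654%, and Fmo2 59.7% and 31.9%. The medians over all probe sets tested were 29.2% between numbers and 18.2% between genotypes. Gsta3 ran the other way, with 34.0% between numbers and 63.8% between genotypes at its brighter probe set and 15.5% and 72.7% at the other. Aldh1a1 was nearly even, at 31.5% and 34.9%.

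The size of these differences was set by a fit with the genotype as a covariate. In an F test over the 3 numbers, 2 of 13576 probe sets passed an adjusted p of 0.05 (0.0147%) and none of the 11 did, where the lowest adjusted p was 0.315. Unadjusted p under 0.05 was met by 5 of 11, beside 12% of all. Number 2 minus number 1 had 4 calls (0.0295%), none of them a member, and an unadjusted p under 0.05 at 4 of 11, beside 11.2% of all. Number 3 minus number 1 had no call (0%) and an unadjusted p under 0.05 at 5 of 11, beside 11.6%, and number 3 minus number 2 had no call (0%).

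Bpifa1 averaged 241 ± 215 at number 2, 226 ± 53.4 at number 3 and 1952 ± 133 at number 1 (SD, n = 3 each). No array of numbers 2 and 3 reached those of number 1, which lay between 1858 and 2104. The log2 difference was -3.47 ± 0.62 in number 2 minus number 1 (unadjusted p = 0.00206, adjusted p = 0.402 in the fit without the filter) and -3.13 ± 0.62 in number 3 minus number 1 (adjusted p = 0.408). Without HO 2 the first of these was -2.78. Scgb3a1 gave -1.42 ± 0.54 in number 2 minus number 1 (adjusted p = 0.381), which became -0.58 without HO 2, and its numbers overlapped.

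Hp averaged 22432 ± 1242 at number 2, 20633 ± 2617 at number 3 and 27689 ± 2084 at number 1, and no array of numbers 2 and 3 reached those of number 1. Cyp2f2, Cbr2 and Scgb3a2 at number 3 were likewise below every number 1 array, by -0.37 ± 0.12, -0.27 ± 0.12 and -0.33 ± 0.14 on the log2 scale. Fmo2 went the opposite way: at its probe set of highest mean it averaged 12822 ± 2928 at number 2, 11441 ± 1282 at number 3 and 8741 ± 707 at number 1. In all, 3 of 11 probe sets did not overlap between numbers 2 and 1, against 16% of all probe sets, and 6 of 11 between numbers 3 and 1, against 20.5%. Between numbers 3 and 2 all 11 overlapped, against 14.2%. Of the 11, 8 were lower and 3 higher at number 3 than at number 1, where 49.9% of all probe sets were higher, and their median was -0.26, beside -0.001 over all. Other lists described below were also mostly lower in this contrast. These were 14 of 18 other club cell and airway secretory genes (median -0.21), 16 of 21 detoxification enzymes (-0.20) and 13 of 15 alveolar type II markers (-0.16). Of 8 neutrophil markers, 7 were higher.

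WT 3 was the lowest of the 9 arrays for Scgb1a1, Scgb3a2, Cyp2f2, Cbr2, Aldh1a1 and Hp. The 100 brightest other probe sets moved the same way: their mean deviation on the log2 scale was 0.10, 0.16 and -0.11 in HO, 0.04, -0.06 and -0.02 in HE, and 0.06, 0.08 and -0.24 in WT. The highest intensity of any probe set was also lowest on WT 3, at 54127, against 58999 to 74461 on the other arrays. After quantile normalization, which gives every array the same distribution, number 3 minus number 1 was -0.08 for Cyp2f2, 0.04 for Cbr2, -0.10 for Scgb3a2 and -0.02 for Scgb1a1. These 4 differences were far smaller than with the deposited scaling, and Cbr2 changed sign. The 4 genes ranked 4 to 31 on every array, and this normalization sets a value by its rank alone. It leaves little room for a difference there, and the source of the differences was not tested. Hp gave -0.29 and Fmo2 0.41 under the same normalization, and Gsta3 by genotype was little changed (0.49 in HO and 0.43 in HE minus WT at the brighter probe set).

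The highest correlations over the 9 arrays lay among 5 genes, Scgb1a1, Scgb3a2, Cyp2f2, Cbr2 and Hp, a set picked after the values were seen. Its edge is not sharp. Aldh1a1, left out of the set, had r of 0.63 to 0.72 with them, and Gsta3 with Fmo2 had 0.76, beside 0.68 for the lowest pair of the set. Correlations were computed for all 45 pairs of the 10 genes, 36 over 9 arrays and the 9 with Bpifa1 over the 6 arrays of numbers 2 and 3, since Bpifa1 fell into 2 clusters. By an exact two-sided permutation test, 7 of 45 pairs passed an adjusted p of 0.05, all among these 5 genes, whose 10 pairs had Pearson's r of 0.68 to 0.96. The test permutes all arrays freely, although 52.6% to 76.6% of the variance of these genes lay between replicate numbers. Its p may therefore overstate the support, and no permutation within numbers was run. Cyp2f2 and Cbr2 were closest (r = 0.96, Spearman's rho = 0.92, exact permutation p = 8.8e-05, adjusted p = 0.00397), and r was 0.96 without the 2 arrays farthest from the median and 0.86 for deviations from the means of the replicate numbers.

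These relations were weaker after quantile normalization. None of the 45 pairs passed, the 10 pairs ran from -0.40 to 0.78, and Cyp2f2 with Cbr2 gave 0.43. At ranks of 4 to 31 on every array, Scgb1a1, Scgb3a2, Cyp2f2 and Cbr2 have little room to vary under this normalization. How far this lowered r was not tested, so the lower r does not decide their relation. Hp ranked 110 to 239. After quantile normalization its r was 0.78 with Cyp2f2, 0.28 with Scgb3a2, 0.06 with Cbr2 and -0.07 with Scgb1a1. Leaving out WT 3 left 1 of 45 pairs past the threshold, where leaving out any other array left between 4 (HE 1) and 11. By Spearman's rho, 3 of the 7 passed: Cyp2f2 with Cbr2, Cyp2f2 with Hp, and Cbr2 with Hp. Scgb1a1 with Cbr2 dropped to r = 0.53, and Scgb1a1 with Scgb3a2 to 0.61, without the 2 arrays farthest from the median. Of the pairs among the 5 that did not pass, Scgb1a1 with Cyp2f2 (r = 0.75) dropped to 0.43, Scgb1a1 with Hp (r = 0.68) to 0.09 and Scgb3a2 with Hp (r = 0.79) to 0.58.

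**Figure D3:**
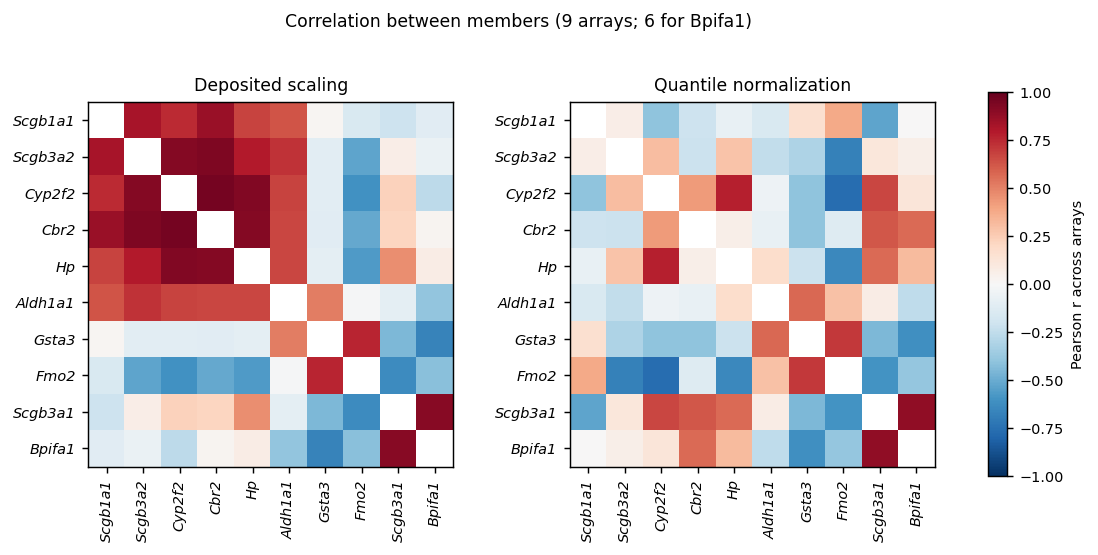
Pearson's r between the 10 club cell genes across arrays (colour scale from -1 to 1; 9 arrays, and 6 for pairs with Bpifa1), with the deposited scaling on the left and after quantile normalization on the right. The block of high r among Scgb1a1, Scgb3a2, Cyp2f2, Cbr2 and Hp on the left is largely absent on the right, where Cyp2f2 with Hp keeps 0.78. Gsta3 with Fmo2 and Scgb3a1 with Bpifa1 also keep r above 0.70 in both. Scgb1a1, Scgb3a2, Cyp2f2 and Cbr2 ranked 4 to 31 on every array, where quantile normalization leaves little room to vary.

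A further 2 pairs changed less under quantile normalization but did not pass the adjustment. Their genes lie below the top ranks, with Fmo2 at 349 to 978 and Scgb3a1 at 289 to 2587 over the arrays used. There this normalization leaves more room to vary, so the contrast with the 5 genes does not show a firmer relation. Gsta3 and Fmo2, both enzymes of foreign compound metabolism, had r = 0.76 (rho = 0.72, exact permutation p = 0.0180, adjusted p = 0.0735), 0.71 after quantile normalization and 0.75 for deviations from the means of the numbers. Scgb3a1 and Bpifa1 had r = 0.91 over the 6 arrays of numbers 2 and 3 (rho = 0.83, exact permutation p = 0.0153, adjusted p = 0.0735) and 0.88 after quantile normalization. Without HO 2 this r was 0.67, and without the 2 arrays farthest from the median 0.62.

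The genes whose log2 values followed Scgb1a1 most closely over the 9 arrays were H2-D1 (r = 0.96), Pkm (0.94), Actb (0.94), Lyz1 (0.92) and Idh3g (0.92), which encode a class I histocompatibility antigen, a glycolytic enzyme, an actin, a lysozyme and a mitochondrial enzyme. None of the 5 is a club cell marker. The mean of the 10 genes, each centred but not scaled, is carried by Bpifa1 and Scgb3a1, whose log2 SDs were 1.82 and 0.92, against 0.14 to 0.31 for the other 8 genes. It was followed most closely by Sdhb (0.98), Tpd52 (0.94), Hmgcs1 (0.93), Ldhb (0.93) and Stub1 (0.93). These values describe 9 arrays that share their scaling.

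Of 25 other genes of club cells and airway secretion, 18 were measured above the filter, and none passed an adjusted p of 0.05 in any comparison. For both transgenic groups minus WT, 7 were higher and 11 lower with a median of -0.04, and none had an unadjusted p under 0.05. The lowest p belonged to Cyp2s1, a cytochrome P450 of epithelia, at -0.24 ± 0.15, and Ephx1, microsomal epoxide hydrolase, at 0.16 ± 0.11. In number 2 minus number 1, 7 of the 18 had an unadjusted p under 0.05, all lower, with a median of -0.29, where 5.87% of all probe sets were lower by this mark. Pon1, the paraoxonase, gave -0.54 ± 0.12, Chad, chondroadherin, -0.97 ± 0.28, Cckar, a cholecystokinin receptor, -0.48 ± 0.14 and Bpifb1 -2.04 ± 0.65. Without HO 2 the Bpifb1 difference was -0.93 ± 0.30 and that of Chad -0.62 ± 0.26. In that fit 5 of the 18 had an unadjusted p under 0.05, all lower, where 4.85% of all probe sets were lower by this mark. Bpifb1, a relative of Bpifa1 from larger airways, had intensities of 1928, 90.7 and 1205 in HO, 1395, 474 and 1044 in HE, and 1009, 901 and 956 in WT. As with Scgb3a1, HO 1 was its highest and HO 2 its lowest array.

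**Figure D4:**
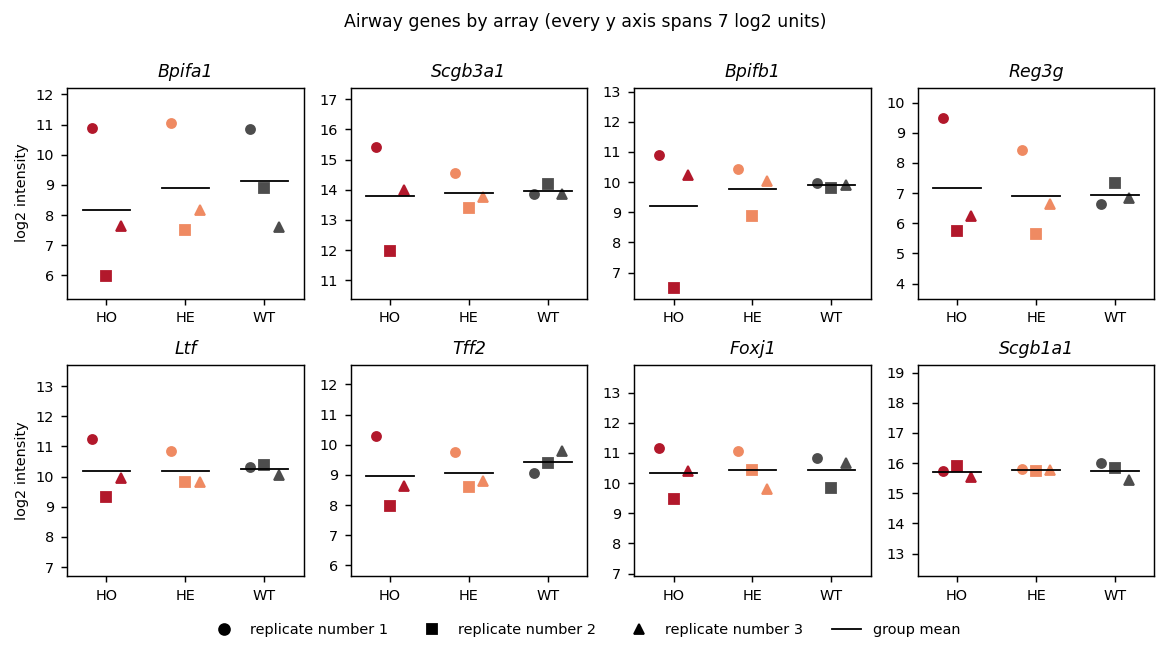
Log2 intensity (y axis, 7 log2 units in every panel) by genotype (x axis: HO, HE, WT) for Bpifa1 and Scgb3a1, 5 other airway genes and Scgb1a1, with 1 marker shape per replicate number and a line at each group mean. The 5 other airway genes were picked for display after their values were seen. HO 2 is the lowest array for Bpifa1, Scgb3a1, Bpifb1, Ltf, Tff2 and Foxj1, which other listed genes such as Col9a1 and Rsph1 did not share. Scgb1a1, near the top of the signal range, stays within 1.47-fold.

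Markers of other cells were set beside these values. Of 16 genes of proximal airway basal cells, glands and cartilage, 3 passed the filter. Ltf, lactoferrin of gland cells, had 2427, 646 and 981 in HO, 1854, 912 and 914 in HE, and 1262, 1323 and 1053 in WT. Tff2, a trefoil peptide of mucous secretion, had 1262, 248 and 394 in HO, 862, 389 and 443 in HE, and 532, 672 and 889 in WT. HO 1 was highest and HO 2 lowest for both. The third, Col9a1, a cartilage collagen, did not share this, with 689, 741 and 650 in HO, 719, 668 and 640 in HE, and 826, 698 and 691 in WT. In number 2 minus number 1, Ltf gave -0.96 ± 0.29 and Tff2 -1.05 ± 0.43, and without HO 2 they gave -0.59 ± 0.27 and -0.67 ± 0.47. The summed intensity of the 16 genes was 6461, 3408 and 3640 in HO, 5088, 4154 and 4004 in HE, and 4838, 4631 and 4596 in WT, with 1 to 4 of the 16 at the floor on each array, and its brightest genes decide such a sum. Reg3g, an antimicrobial lectin of this list that lay under the filter and was picked after its values were seen, had 712, 54.1 and 75.4 in HO, 345, 50.6 and 99.1 in HE, and 99.4, 161 and 115 in WT.

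Ciliated cells were represented by 8 of 18 listed markers, of which 6 passed the filter. Foxj1, the transcription factor of ciliated cells, had 2298, 708 and 1359 in HO, 2165, 1398 and 900 in HE, and 1843, 912 and 1610 in WT. The summed intensity of the 8 was 13538, 13669 and 13785 at number 2 and 15091, 14782 and 15119 at number 3, against 16443, 18664 and 16834 at number 1 (HO, HE and WT in each), and none of the 8 was at the floor. Tppp3 alone made up most of this sum. Without it the sums were 3005, 4027 and 4041 at number 2 and 4535, 3644 and 5001 at number 3, against 5571, 6164 and 5266 at number 1, so number 1 stayed highest and numbers 2 and 3 overlapped. Rsph1, a gene of the ciliary axoneme, had 667, 525 and 624 in HO, 915, 348 and 528 in HE, and 842, 622 and 675 in WT, with its lowest value on HE 2. In number 2 minus number 1 all 6 were lower, with a median of -0.36. Of them, 3 had an unadjusted p under 0.05, where 5.87% of all probe sets were lower by this mark. Without HO 2 it was 2 of 6, beside 4.85% of all. For both transgenic groups minus WT, 5 of 6 were lower with a median of -0.17. Of them 1, Tctex1d4 at -0.35 ± 0.16, had an unadjusted p under 0.05, beside 4.19% of all probe sets. The summed intensity of 12 cardiac muscle markers, known from heart and pulmonary vein, was 51191, 30184 and 29313 in HO, 48961, 29153 and 30721 in HE, and 32435, 35231 and 36707 in WT. The part of these markers in the values of Bpifa1 and Scgb3a1 was not tested.

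For alveolar type II cells, in which the Sftpc promoter is active, 15 markers were measured. None had an unadjusted p under 0.05 for both transgenic groups minus WT, and their median was -0.001. Alveolar type I markers, 11 of them, gave a median of -0.01, also with none. The 8 neutrophil markers were all lower in HO than in WT, with a median of -0.31, and 7 of 8 were higher in HE than in WT, with a median of 0.27, and none had an unadjusted p under 0.05 in either. Of 8 acute phase and inducible defence genes, the class to which Hp belongs in the liver, 4 were higher and 4 lower for both transgenic groups minus WT, with none at an unadjusted p under 0.05.

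Transcription factors known to act on club cell promoters, listed together with the receptor Notch2, were represented by 14 measured genes. For both transgenic groups minus WT, 1 of 14 had an unadjusted p under 0.05, where 4.19% of all probe sets did: Nkx2-1, the factor of lung identity whose letters are marked in the promoters of Scgb3a1 and Bpifa1. It had 365, 485 and 467 in HO, 429, 536 and 547 in HE, and 507, 619 and 735 in WT. HO and WT did not overlap, and HE and WT did. The difference was -0.39 ± 0.15 (unadjusted p = 0.0249), and it did not pass the adjustment. Nkx2-1 lies close to the filter's intensity of 477. Its values of 365 and 467 in HO and 429 in HE were under that intensity, and all its WT values were above it. The filter uses the mean over all arrays, which the WT values raised, so this difference at low signal is given with caution. Foxa2, a forkhead factor of airway epithelium, gave -0.19 ± 0.16, and Klf5 0.16 ± 0.15.

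Detoxification enzymes other than the members gave the comparison for Gsta3 and Fmo2. Of 21 measured, 12 were higher and 9 lower for both transgenic groups minus WT, with a median of 0.04. An unadjusted p under 0.05 was met by 2 of the 21, beside 4.19% of all probe sets. They were Aldh3a1, an aldehyde dehydrogenase, at 0.29 ± 0.13, and Cyp2c29, a cytochrome P450, at -0.41 ± 0.17. Nqo1, a quinone reductase and well known NRF2 target, had 598, 363 and 495 in HO, 704, 346 and 452 in HE, and 777, 494 and 474 in WT, and its groups overlapped. In number 2 minus number 1, 8 of 21 had an unadjusted p under 0.05, all lower, where 5.87% of all probe sets were lower by this mark. Without HO 2 it was 6 of 21, all lower, beside 4.85% of all. Sult1d1, a sulfotransferase, at -1.48 ± 0.23 and Cyp2e1 at -1.10 ± 0.18 had the lowest p. For the same contrast Gsta3 gave 0.37 ± 0.11 and 0.13 ± 0.12 at its 2 probe sets, with overlapping numbers at both, and Fmo2 gave 0.53 ± 0.13 and 0.67 ± 0.17 at its brighter 2, and none of these passed the adjustment.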

How the data were processed

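Lung total RNA was read on Affymetrix mouse 430A arrays after biotin labelling, per the labels. The deposited intensity values are linear, 1 per probe set and array, and in them every array has the same mean of 1500 after 2% is left off each end. The sources used here do not give the software that summarised probes or any detection call. The number of arrays limits the precision.

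Values under the 5th percentile (25.5) were set to it before taking log2. The 64 control probe sets were left out, as were those whose mean log2 fell below the 40th percentile of all (8.90), which left 13576. Groups came from the sample titles. Genotypes were fitted to all 9 arrays with limma 3.58.1 in R 4.3.3 (lmFit and eBayes, 6 residual degrees of freedom), and replicate numbers with genotype as a covariate (4 residual degrees of freedom). Benjamini-Hochberg adjustment ran over all probe sets tested, with a threshold of 0.05. Permutation tests used scipy 1.17.1. The functions were tested on simulated data.

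All 10 members are named, with all their probe sets. From each other list, up to 4 measured genes of lowest p in the comparison described are named, at the probe set of highest mean, beside Cftr, Sftpc and the 5 genes most like Scgb1a1 and the members' mean. Reg3g, and Nqo1 by genotype, were picked after their values were seen. Symbols came from the platform annotation, in which 20380 probe sets had 1 symbol, 691 several and 1555 none. Promoters came from RefSeq. The members and the lists were chosen with earlier results of these data known. Replicate numbers paired HO with WT by the criterion that deviations from group means correlate over 0.1 for every number (0.19, 0.14 and 0.28 across probe sets), but not HE with WT (0.30, 0.05 and 0.04) or HO with HE (0.16, 0.15 and 0.03). The mean r between different numbers was -0.10 for HO with WT, -0.07 for HE with WT and -0.06 for HO with HE.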

Additional observations from a re-analysis of the deposited data

How the results depend on the processing

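Across 26 alternatives, 1862 member differences were recomputed and 0 passed an adjusted p of 0.05. The sign of 1740 was kept and 122 changed it, 12 of these from a value beyond 1 SE. The Scgb3a1 difference in HO minus HE was 1.28 with HO 2 counted as HE (unadjusted p = 0.0452), against -0.12 with HO 2 in HO. With the replicate block for the pairing, the brighter Gsta3 probe set in HO minus WT had an unadjusted p of 0.00173 and an adjusted p of 0.826, and no genotype comparison gained a call (0 of 13576 in each). With this block, Fmo2 in HE minus WT had unadjusted p of 0.0123 and 0.0151 at its brighter probe sets (adjusted p = 0.999 for both), against 0.0775 and 0.0936 without it, and 4 of 11 member probe sets were under 0.05, beside 4.35% of all. The numbers did not pair HE with WT by the criterion used. Counts of calls over all probe sets changed with the setting. Without the filter, alone or with quantile normalization (the latter added after seeing the data), the genotype F test, HO minus HE and HE minus WT each had 2 calls, and the number F test and number 2 minus number 1 had 0. Both were also 0 without the filter and HO 2 (added after seeing the data). The number F test, with 2 calls, had 1 under quantile normalization, median centring, a filter at the 60th percentile or no genotype term, 5 under a trended and robust eBayes, and 0 with 1 probe set per gene or HO 2 as HE. Number 2 minus number 1, with 4, had 9 under the trended fit, 2 with 1 probe set per gene, 0 with HO 2 as HE and 19 without the genotype term. Number 3 minus number 1 had 3 under the trended fit. Leaving out 1 array gave 0 to 1 calls in HO minus WT, HE minus WT, both transgenic groups minus WT and the genotype F test (1 without WT 1), 0 to 1 in the number F test and in number 3 minus number 1 (1 without HO 1), and 0 to 6 in number 2 minus number 1 (6 without WT 2). The cause was not tested. Bpifa1, the gene of widest spread, sits on arrays of numbers 2 and 3 under the filter's intensity of 477 or close to it, which limits its values there.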
